A study of Homo sapiens with 12 samples.

Results

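The genes described here lie on the distal long arm of chromosome 12. A gene belonged to the set when its annotated start lay from 76 Mb on GRCh37 to the end of the chromosome and its counts summed to at least 120 over the 12 libraries. Of the 63677 Ensembl identifiers in the count tables, 16075 had a position and reached that sum, and 326 of these lay on the arm. They ran from PHLDA1 (start at 76419227) to ZNF268 (start at 133757995). The arm was chosen by an earlier look at the ratio of knockout to control in these same libraries, so that ratio is given here as a description. Members that passed a threshold for it are listed, but nothing is read from their number. For the members, tests are read only in contrasts that played no part in the choice.

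LNCaP is an established human prostate cancer line whose growth depends on androgen. A pair of derivative lines was compared, a TALEN vector control line (Ctr) and a Bag-1L knockout line (KO) in which TALENs, paired sequence-directed nucleases, had been aimed at the start of the longest protein form of BAG1, a cochaperone gene on chromosome 9. The knockout came from a clone picked by serial dilution and screened by immunoblot. Both lines were grown in full medium (FM), or kept 72 h in hormone-depleted medium and treated for 16 h with ethanol vehicle (EtOH) or 10 nM dihydrotestosterone (DHT), an androgen. Each of the 6 groups had 2 replicates, and since a line stands for each genotype, an effect of the knockout cannot be told apart from any other difference between the lines.

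Genes that are neighbours on a chromosome arm usually differ in function. When the copy number of a chromosome segment changes, the transcripts of many genes within it tend to shift by a similar small factor, and such a shift begins and ends at the borders of the segment. RNA measurements alone cannot tell a change in copy number from other changes in transcript level, and no DNA measurement is used here. The question was whether the lower expression in KO formed a block with edges.

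The libraries held between 20826843 and 30354666 gene counts. At these depths 3 counts, taken as the detection floor, equal 0.0988 to 0.144 CPM (counts scaled to a common total per library). BAG1 itself was 2042 ± 106 normalized counts (SD, n = 2) in Ctr and 1514 ± 87.6 in KO in FM, 2202 ± 708 and 1147 ± 62.5 in EtOH, and 2415 ± 305 and 1095 ± 26.9 in DHT. The log2 difference of KO from Ctr was -0.43 in FM (adjusted p = 0.0682, DESeq2), -0.94 in EtOH (adjusted p = 6.35e-06) and -1.14 in DHT (adjusted p = 7.71e-09). All 9 luminal prostate markers, KLK3 among them, exceeded 1 CPM in every library, whereas 2 of 3 basal, 3 of 4 fibroblast, 3 of 3 leukocyte and 1 of 2 endothelial markers stayed below 1 CPM throughout. The exceptions were KRT14 (0 to 1.25 CPM), COL1A1 (15.2 to 38.5 CPM) and VWF (4.92 to 9.44 CPM). Between replicates, the median size of the log2 difference was greatest in Ctr EtOH at 0.238 and lay between 0.0765 and 0.172 elsewhere.

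The members comprised 265 protein coding genes, 39 long noncoding RNAs, 18 pseudogenes and 4 small RNAs. Another annotated gene overlapped 241 of them. The strand setting used in counting is not given in the sources used here, so reads of overlapping or antisense genes may not be separated. At the threshold, PUS1-AS1 and LINC02453 were just outside the set, with log2 CPM ratios of KO over Ctr of 0.12 and 0.14 in FM, 0.16 and -0.05 in EtOH and -0.20 and 0.54 in DHT. ADAM1B and AMDHD1 were just inside it, with 0.33 and 0.34 in FM, 0.35 and 0.10 in EtOH and 0.15 and 0.10 in DHT. KRR1, the last gene before the start of the interval, stood at -0.26 in FM, -0.15 in EtOH and -0.06 in DHT. PHLDA1, the first member, stood at 0.27, -0.53 and 0.11.

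Members were lower in KO more often than higher, by small amounts. The DESeq2 log2 fold change was below 0 for 232 members in FM, 249 in EtOH and 236 in DHT, which is 71.2%, 76.4% and 72.4% of 326. Over all genes these shares were 51.1%, 49.9% and 51.8%. The median log2 fold change of the members was -0.19 in FM, -0.17 in EtOH and -0.19 in DHT, beside -0.01, 0 and -0.02 over all genes. Of the 326 members, 181 were below 0 in all 3 conditions and 39 were above 0 in all 3.

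The threshold was an adjusted p of at most 0.05 with at least a 1.5-fold change, and shares are of genes with an adjusted p. In FM 14 members passed as lower (4.56%, beside 2.6% of all genes tested). As higher 9 passed (2.93%, beside 5.41% of all genes). In EtOH 16 were lower (4.91%, beside 2.31% of all genes) and 7 higher (2.15%, beside 2.8%). In DHT 13 were lower (4.01%, beside 3.32% of all genes) and 7 higher (2.16%, beside 4.66%). The choice of the arm used these contrasts, so nothing is read from the counts. None of the members passed as lower in all 3 conditions. In the genome 101 genes did, with 15000 genes tested in FM, 16521 in EtOH and 16014 in DHT. SNRPF, ELK3, HSP90B1, CUX2, TESC, MSI1 and TMEM132D-AS1 passed as lower in exactly 2 conditions, for which no share over all genes was taken. PPFIA2, IGF1, BTG1-DT and 2 identifiers without a symbol, ENSG00000258162 and ENSG00000257951, passed as higher in all 3, as did 194 genes in the genome. These genes were named after their values were seen.

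To look for edges, the 292 members with a mean of at least 1 CPM were put in order of their starts. Their log2 CPM ratio (KO over Ctr, 0.5 CPM added, mean of FM, EtOH and DHT) was fitted as flat pieces by least absolute deviations, with every placement of the edges tried and at least 10 genes in a piece. With 2 edges the best fit put the first between UNG and ACACB (109.554 Mb) and the second between TMED2-DT and TMED2 (124.069 Mb). The piece medians were -0.15, -0.07 and -0.16, so in this fit the middle piece lay above its neighbours and was no lower block. With 3 edges, 64 genes from TMTC3 (88.5361 Mb) to TXNRD1, before 104.659 Mb, stood at -0.21, between pieces at -0.05 and -0.07. The last piece stood at -0.16. The same 64 genes were the middle piece with 2 edges without Ctr FM replicate 2 (-0.20), KO FM replicate 2 (-0.20) or Ctr DHT replicate 2 (-0.21). The sum of absolute deviations was 56.8 with no edge, 56.0 with 1, 55.0 with 2 and 54.3 with 3, a decrease of 3.12% for the 2-edge fit.

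The genes at these edges did not divide cleanly. Before the first edge, the mean log2 CPM ratio was -0.09 for SSH1, a cofilin phosphatase, -0.04 for USP30, a mitochondrial deubiquitinase, -0.31 for the DNA demethylase ALKBH2 and -0.37 for UNG, which removes uracil from DNA. After it, the ratio was -0.11 for ACACB, an acetyl-CoA carboxylase, -0.03 for KCTD10, -0.04 for the ubiquitin ligase UBE3B and 0.04 for MMAB, an enzyme of cobalamin metabolism. Before the second edge, RILPL2 stood at 0.76, SNRNP35 at -0.08, RILPL1 at -0.02 and TMED2-DT at 0.35. After it, TMED2, a cargo receptor of early secretory vesicles, stood at -0.31, the helicase DDX55 at -0.11, EIF2B1 at -0.10 and GTF2H3 at -0.30. TMED2-DT overlaps TMED2, and UNG overlaps ACACB, so reads at both edges touch an overlapping pair.

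The edges also moved between libraries. With each KO library set alone against the mean of its controls, the first edge fell at 88.4 and 110.0 Mb in the FM libraries, 101.0 and 120.8 Mb in EtOH and 93.8 and 82.6 Mb in DHT. The second edge fell at 109.9 and 124.1 Mb in FM, 104.7 and 121.7 Mb in EtOH and 95.4 and 109.2 Mb in DHT. The middle piece was the lowest in 5 of these 6 fits and the highest in KO FM replicate 2. No pair of edges recurred across the 6 KO libraries. A single edge between 109.2 and 110.0 Mb was found in both KO FM libraries and KO DHT replicate 2. It was absent from these fits in both KO EtOH libraries and KO DHT replicate 1.

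GC content moved with the ratio. Over genes off chromosome 12, divided into 20 bins of exonic GC content, the median log2 CPM ratio in FM went from -0.14 in the lowest bin to 0.51 in the highest. It went from 0.04 to 0.14 in EtOH and from 0.07 to 0.18 in DHT. Spearman's rho between ratio and GC content across all genes was 0.51 in FM, 0.10 in EtOH and 0.11 in DHT. For replicate 2 over replicate 1 of a group, rho ran from -0.48 in Ctr FM to 0.61 in KO DHT. Libraries of the same group thus differed in GC trend by as much as the lines did. These values are a description, since genes share libraries. Along the arm the median GC content of members rose from 37.4% in the first 6 Mb to 52.9% in the stretch after 130 Mb. The ratio was therefore also taken after subtracting the median of off-chromosome-12 genes in the same GC bin and condition, a step chosen after seeing the data.

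After this adjustment the whole of chromosome 12 (734 genes with at least 1 CPM) was best divided by a single step between CEP290 and TMTC3, at 88.5361 Mb. CEP290, a centrosomal protein of the cilium base, and TMTC3, a mannosyltransferase of the endoplasmic reticulum, lie 196 bases apart. The 464 genes proximal to it, 22 of them members of the arm, had a median of -0.01 and the 270 genes distal to it a median of -0.17, or 11.1% below the reference genes. The step lowered the sum of deviations by 5.53%. Distal genes were below 0 in 78.1% of cases, proximal genes in 51.7% and genes on other chromosomes in 51.2%. The middle 50% of the distal genes spanned -0.27 to -0.02 and that of genes elsewhere spanned -0.14 to 0.15, so the 2 distributions overlapped widely.

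The position of the step was loose and its size was steady. Without GC adjustment the single step fell at 65.1533 Mb, outside the arm, with medians of 0.05 before it and -0.10 after it. Positions whose fit was within 0.5% of the best spanned 72.19 to 94.03 Mb after adjustment and 58.16 to 88.37 Mb without it. In the 6 KO libraries the adjusted step fell between 72.3 and 93.8 Mb, and its size was -0.14 to -0.17. The step was placed anew in each, and both KO libraries of a condition shared the same controls, so these values are not independent. A step placed in FM alone (88.4428 Mb) had a distal minus proximal difference of -0.14 in FM, -0.16 in EtOH and -0.16 in DHT. The arm was chosen on the ratio in all 3 conditions, so these values are a description and no independent support for the step.

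In stretches of 6 Mb the ratio stayed below 0 from 82 Mb to the end of the chromosome, with shorter exceptions found by some of the fits. In consecutive stretches of 6 Mb the adjusted median was 0.02 over the 14 genes from 76 Mb and -0.20 over the 4 genes from 82 Mb. The next stretches stood at -0.11 (19 genes), -0.24 (23 genes), -0.18 (33 genes), -0.14 (47 genes), -0.12 (31 genes) and -0.16 (74 genes), in order. The median was -0.20 over the 21 genes from 124 Mb and -0.24 over the last 26 genes. An exception lay within the stretch from 118 Mb. With 3 edges, the adjusted fit of the arm set apart 10 genes from MPHOSPH9 (123.637 Mb) to TMED2-DT with a median of 0.01, between pieces at -0.17 and -0.23. In FM alone and without adjustment, the 3-edge fit set apart 15 genes from HIP1R (123.319 Mb) to TMED2-DT at 0.11. RILPL2 and TMED2-DT, with ratios above 0, lie in both runs, and the 46 genes after them stood at -0.23 and -0.15 in these fits. Other fits without adjustment set apart other runs. In DHT alone with 3 edges, 19 genes from RITA1 (113.623 Mb) to VSIG10 stood at 0.15. In EtOH alone with 2 edges, 24 genes from RITA1 to HSPB8 stood at 0.0042. In KO EtOH replicate 1 with 3 edges, 13 genes from CHST11 (104.849 Mb) stood at 0.10.

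**Figure D1:**
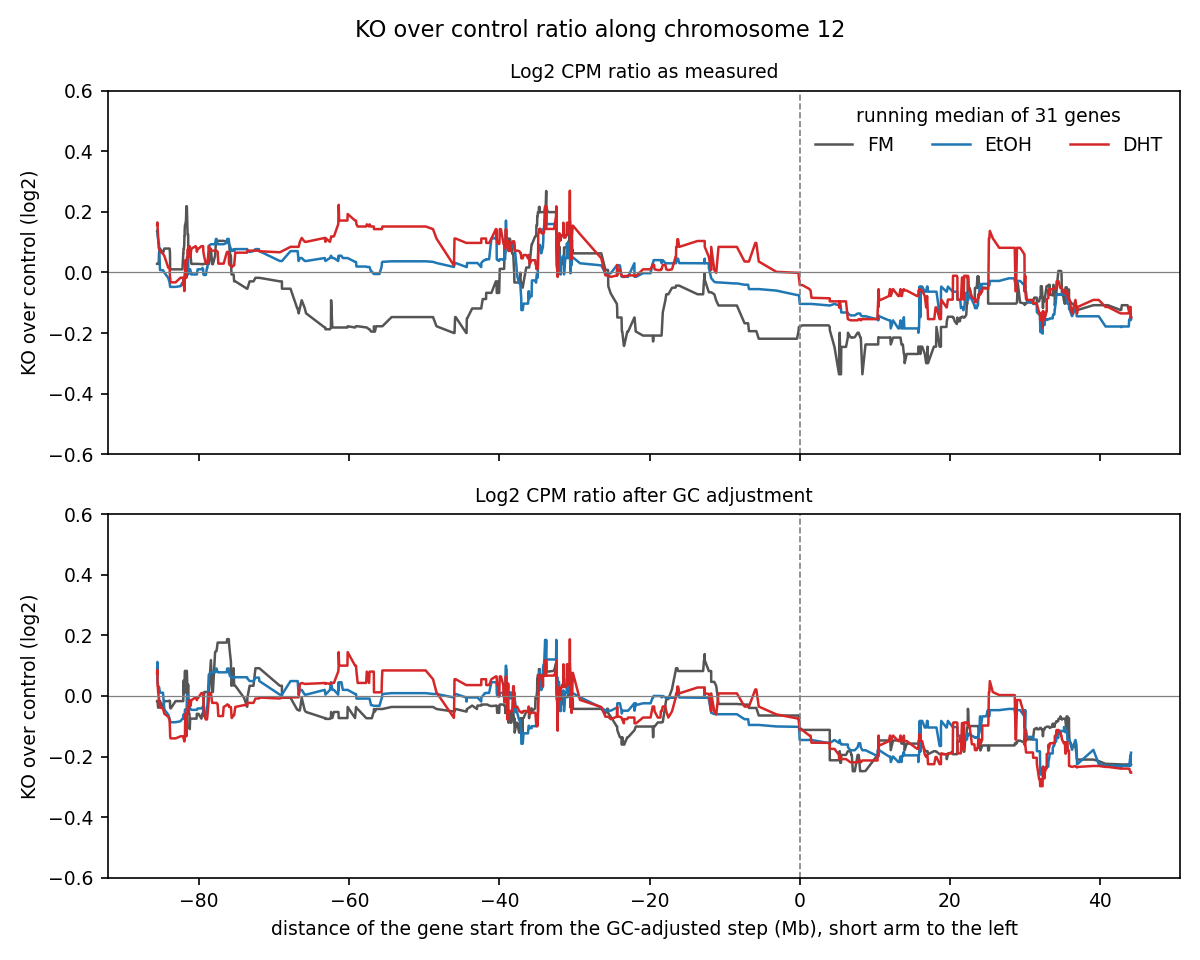
Log2 CPM ratio of KO over Ctr along chromosome 12 as a running median of 31 genes, against the distance of each gene's start from the GC-adjusted step in Mb. The upper panel shows the ratio as measured, where FM lies apart from EtOH and DHT, and the lower panel the ratio after GC adjustment, where all 3 lines lie mostly below 0 to the right of the step.

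Set beside other contrasts of the same libraries, the gap between distal and proximal genes in KO over Ctr is a description, since the step was placed where this ratio fell and the other contrasts played no part in its placement. In the 6 KO libraries the adjusted distal median was between -0.15 and -0.18 and the proximal median between -0.03 and 0.00. Between the replicates of a group the distal minus proximal difference was -0.02 to 0.02. Within a line it was 0.04 in Ctr and 0.06 in KO for DHT over EtOH, and 0.10 in Ctr and 0.14 in KO for FM over EtOH. The gap for FM over EtOH, upward in both lines, thus came near the size of the gap for KO over Ctr, which was -0.13 in FM, -0.16 in EtOH and -0.16 in DHT.

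**Figure D2:**
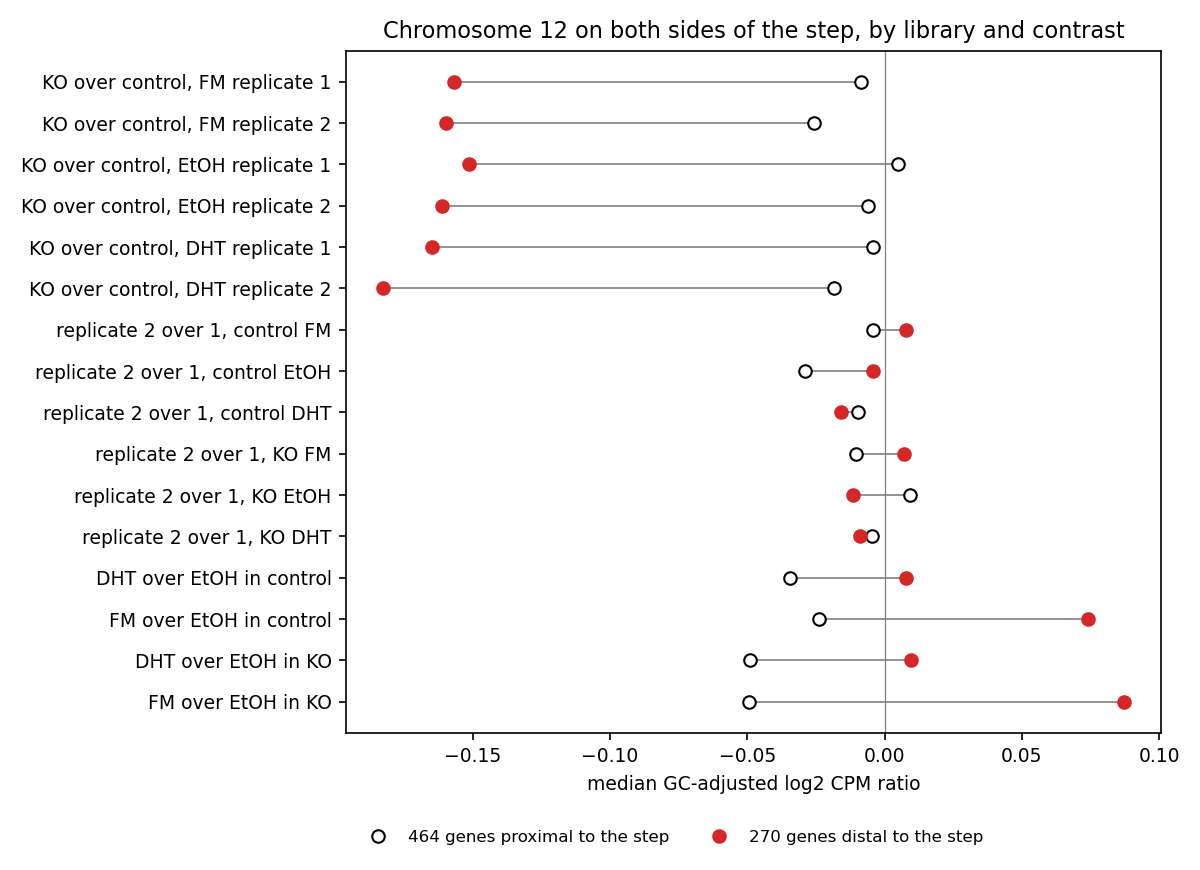
Median GC-adjusted log2 CPM ratio of the 464 genes proximal (open) and the 270 genes distal (red) to the step, for each KO library over the mean of its controls, for replicate 2 over replicate 1 of each group and for each condition over EtOH. The distal points lie at -0.15 to -0.18 in the 6 KO rows, near 0 in the replicate rows, and at 0.07 and 0.09 for FM over EtOH.

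Across the genome, the adjusted KO over Ctr median of the other 22 chromosomes lay between -0.04 and 0.28. Chromosome 8 held the upper value, and the other 21 lay between -0.04 and 0.04. The distal piece of chromosome 12 stood at -0.17, and since it was cut where this ratio fell, the cut favours a low place. Chromosome 12 as a whole stood at -0.06, below the lowest of the others, and it holds the arm chosen on this ratio. A single step lowered the sum of deviations by 0.141% to 17.6% on these chromosomes, beside 5.53% on chromosome 12. Chromosome 13 held the upper value, and the next was 2.65% on chromosome 4. For FM over EtOH, the distal piece stood at 0.07 in Ctr and 0.09 in KO, above the highest other chromosome in each (0.04 and 0.05). For DHT over EtOH it stood at 0.01 in both lines, within the range of the other chromosomes (-0.06 to 0.03 in Ctr and -0.02 to 0.03 in KO).

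**Figure D3:**
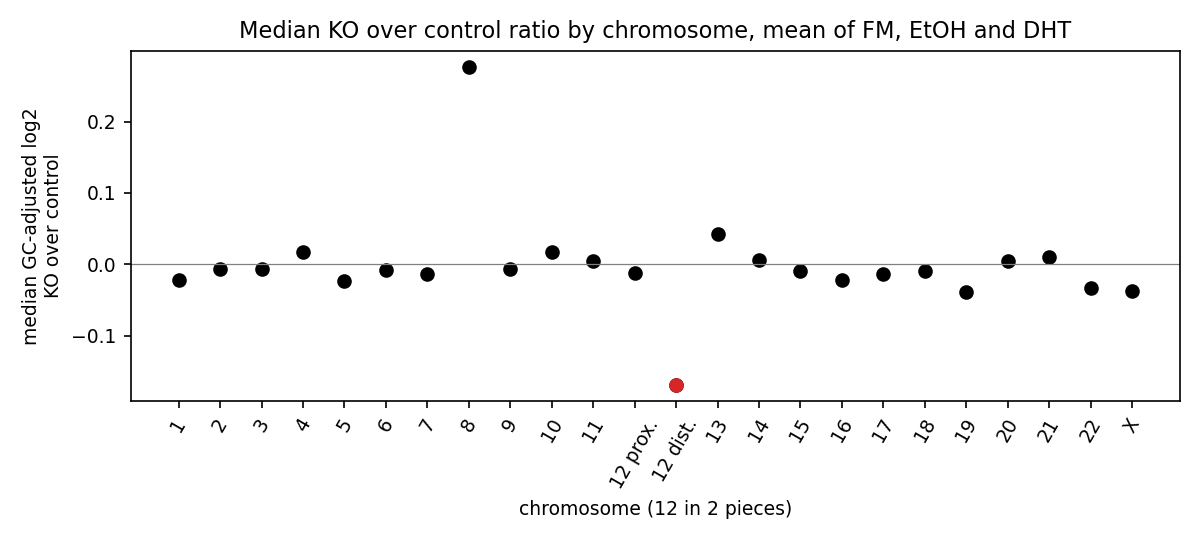
Median GC-adjusted log2 CPM ratio of KO over Ctr for each chromosome, as the mean of FM, EtOH and DHT, with chromosome 12 in its pieces proximal and distal to the step. The distal piece (red) was cut where the ratio fell and lies at -0.17, and chromosome 8 lies at 0.28.

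The difference from proximal genes was present at each level of expression. This is a description and no independent support, since the step was placed on this same ratio. Among distal genes with 1.09 to 20.5 CPM the adjusted median was -0.09, beside 0.07 for proximal genes in the same range. From 20.8 to 72.8 CPM it was -0.15 beside -0.01, and from 73.8 to 3130 CPM it was -0.23 beside -0.06. Genes off chromosome 12 stood at 0.04, -0.01 and -0.05 in these ranges, so higher levels went with lower ratios elsewhere as well.

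The members lower in KO by the largest amounts had varied roles, and were selected on these values. HSP90B1 (chr12:104323885-104347709), the chaperone of the endoplasmic reticulum also called GRP94, had 78421 and 77965 normalized counts in Ctr FM and 53170 and 56912 in KO FM. In EtOH it had 63544 and 76969 in Ctr and 40042 and 38290 in KO. In DHT it had 121360 and 149582 in Ctr and 56847 and 52902 in KO. Every KO library was below both of its controls, with log2 fold changes of -0.51, -0.84 and -1.30 in FM, EtOH and DHT.

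MSI1, an RNA-binding protein of progenitor cells, had 907 and 822 normalized counts in Ctr FM against 629 and 677 in KO, 597 and 764 in Ctr EtOH against 330 and 344 in KO, and 867 and 900 in Ctr DHT against 525 and 628 in KO. The groups did not overlap in any condition, and the log2 fold changes were -0.40, -1.01 and -0.62. TESC, a calcium-binding protein, differed from Ctr by -0.32, -0.95 and -0.71 on the log2 scale, and its replicates were 401 and 540 in Ctr EtOH against 260 and 229 in KO EtOH. ELK3, an ETS transcription factor, had 436 and 423 normalized counts in Ctr EtOH and 267 and 279 in KO EtOH, with log2 fold changes of -0.75, -0.65 and -0.35. NT5DC3 differed by -0.57, -0.80 and -0.39 and SOCS2 by -0.58, -0.42 and -0.94.

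Members higher in KO lay among them. IGF1 (chr12:102789652-102875522), a growth factor, had 107 and 100 normalized counts in Ctr FM and 321 and 274 in KO FM. It had 25.7 and 33.8 in Ctr EtOH against 97.2 and 96.9 in KO, and 74.7 and 56.5 in Ctr DHT against 180 and 174 in KO. The groups were apart in each condition, by 1.52, 1.71 and 1.43 on the log2 scale. PPFIA2 (chr12:81651754-82153332), a liprin that organizes presynaptic sites, had 1668 and 1629 normalized counts in Ctr FM against 4016 and 3622 in KO, and log2 fold changes of 1.21, 1.09 and 1.46.

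NAV3, a protein of growing microtubule ends, differed by 0.77, 0.50 and 1.07 and RILPL2, which acts in transport into cilia, by 1.01, 0.71 and 0.35. SDSL, related to serine dehydratase, had 836 and 783 normalized counts in Ctr FM against 1533 and 1847 in KO FM. Its replicates overlapped with those of KO in EtOH (933 and 1659 against 1841 and 1498) and in DHT (1519 and 1844 against 1691 and 2147). ACAD10, an acyl-CoA dehydrogenase, differed by 0.17, 0.40 and 0.51. PPFIA2 and NAV3 lie proximal to the adjusted step, and IGF1, RILPL2, SDSL and ACAD10 lie distal to it.

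**Figure D4:**
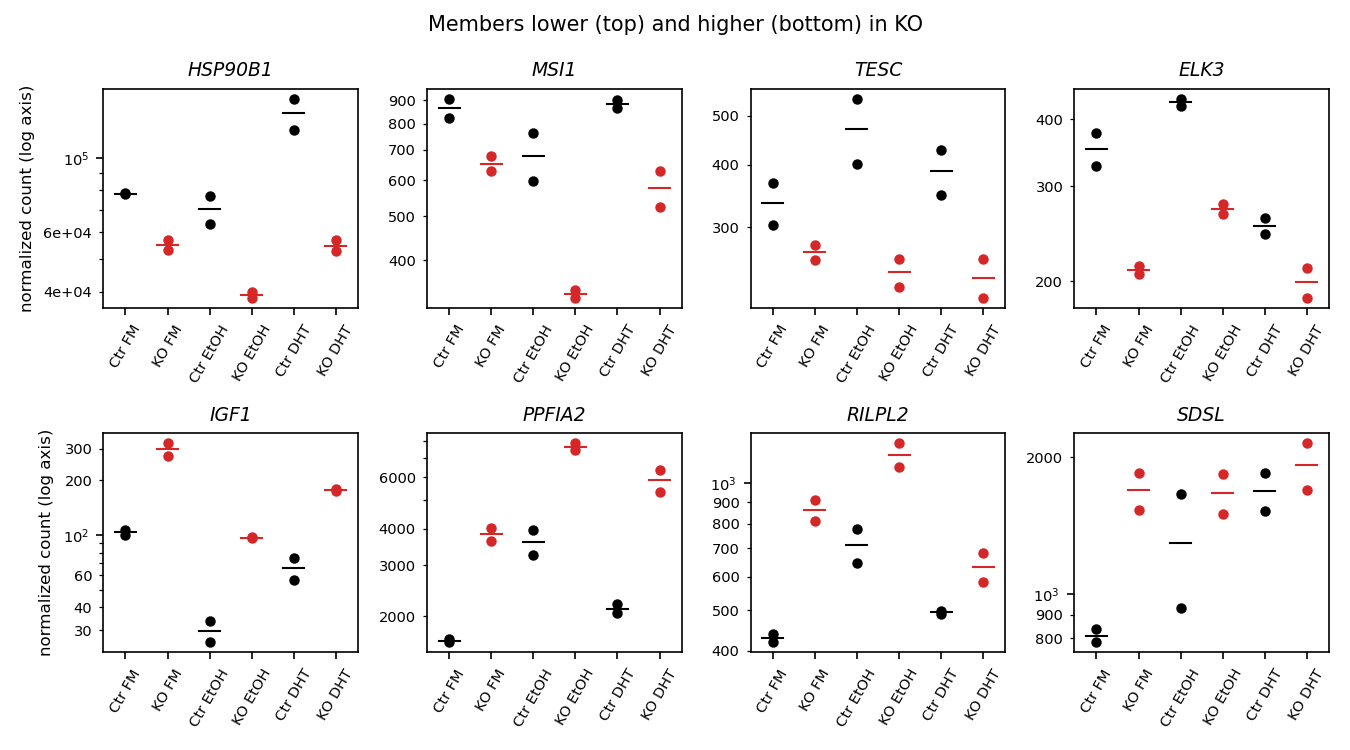
Normalized counts, on a log axis, of 4 members that were lower in KO (top) and 4 that were higher (bottom) in each library, with Ctr in black, KO in red, points for replicates and bars for means. HSP90B1 goes from 121360 and 149582 in Ctr DHT to 56847 and 52902 in KO DHT, while IGF1 is higher in KO in each condition.

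Grouped by role, most members lay below 0, as did the arm as a whole, where 181 of 326 members were below 0 in all 3 conditions. Over the arm 36 members passed as lower in at least 1 condition and 11 as higher, while 5.44% of all genes passed as lower and 8.09% as higher, and since the arm was chosen on this ratio nothing is read from the counts of a list. A broad list headed DNA replication, repair and cell death also held genes with other main roles, such as RAN and TMPO. Of its 17 members, 16 were below 0 in all 3 conditions. The list's median log2 fold change was -0.36 in FM, -0.36 in EtOH and -0.36 in DHT, and 6 of 17 members passed as lower in at least 1 condition and 0 as higher. RAN, the GTPase of nuclear transport, differed by -0.26, -0.43 and -0.40 and TMPO, a lamin-binding protein, by -0.51, -0.64 and -0.51. TDG, a glycosylase that acts on mismatched thymine, differed by -0.51, -0.28 and -0.47 and UNG by -0.38, -0.62 and -0.36.

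All 13 members of the endoplasmic reticulum, Golgi and secretory list were below 0 in each condition. Their medians were -0.35, -0.31 and -0.46, with 5 of 13 members passing as lower at least once, beside 36 of 326 over the arm. Lists were not matched to the arm by level of expression, and higher levels went with lower ratios on and off chromosome 12. After HSP90B1 the most abundant were ATP2A2, the calcium pump of the reticulum (-0.41, -0.20 and -0.32), TMED2 (-0.35, -0.33 and -0.51) and MLEC, a lectin for newly made glycoproteins (-0.49, -0.72 and -0.46). TMED2 had 20512 and 22311 normalized counts in Ctr FM and 16924 and 16629 in KO FM, a small difference with no overlap between the groups.

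Translation genes were below 0 in all 3 conditions for 8 of 9 members, with medians of -0.29, -0.29 and -0.40. The ribosomal proteins RPLP0 (-0.24, -0.43 and -0.40) and RPL6 (-0.22, -0.41 and -0.43) led this list by level, ahead of GCN1 (-0.43, -0.12 and -0.05), which senses stalled ribosomes, and the peptidase METAP2 (-0.40, -0.29 and -0.41). Ubiquitin and proteasome genes were below 0 throughout for 7 of 8 members, with medians of -0.19, -0.19 and -0.23. ANAPC5, a subunit of the anaphase-promoting complex, stood at -0.21, -0.21 and -0.17 and the ligase RNF10 at -0.29, -0.30 and -0.52. None of the ubiquitin genes passed the threshold in either direction.

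Chromatin and transcription genes were below 0 throughout for 13 of 17 members, with medians of -0.26, -0.13 and -0.13. TBX3, a repressor of the T-box family, stood at -0.10, 0.06 and 0.03. The splicing factor SRSF9 stood at -0.11, -0.31 and -0.40 and KMT5A, which methylates histone H4, at -0.07, -0.28 and -0.67. Signalling genes were below 0 throughout for 12 of 19 members, with medians of -0.22, -0.20 and -0.20. PEBP1, an inhibitor of RAF, stood at 0.03, -0.30 and -0.22 and the phosphatase PPP1CC at -0.34, -0.29 and -0.31.

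The lists of metabolism differed in count. Of 13 mitochondrial members 7 were below 0 throughout, with medians of -0.15, -0.34 and -0.34. The phosphate carrier SLC25A3 stood at -0.28, -0.37 and -0.46 and COX6A1, a subunit of cytochrome oxidase, at 0.08, -0.44 and -0.54. Of 9 lipid and sterol members 4 were below 0 throughout, with medians of -0.05, -0.18 and -0.10, and CHPT1, which makes phosphatidylcholine, stood at 0.06, -0.07 and -0.08. None of the lipid members passed the threshold for KO against Ctr. No list was compared with another by a test.

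The DHT response played no part in the choice of the arm. In Ctr, 18 members rose with DHT against EtOH and 16 fell, which is 5.52% and 4.91% of 326, while 6.04% of all genes rose and 5.37% fell. In KO, 14 rose and 10 fell, 4.29% and 3.07%, while 4.43% of all genes rose and 3.24% fell. These shares were near those of the genome, although members had at least 120 summed counts and all genes at least 10. The median DHT response of the members was -0.02 in each line, and 17 of 326 members passed in the same direction in both lines, while 6.06% of all genes did.

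SOCS2 (chr12:93963590-93977263), a feedback inhibitor of cytokine and growth hormone signalling, rose with DHT. It had 188 and 199 normalized counts in Ctr EtOH and 1278 and 1530 in Ctr DHT, and 139 and 151 in KO EtOH and 715 and 749 in KO DHT. The groups did not overlap in either line, and the log2 response was 2.86 ± 0.15 (SE) in Ctr (adjusted p = 4.22e-80) and 2.33 ± 0.16 in KO (adjusted p = 1.79e-47). SOCS2-AS1, which overlaps it, moved in the same direction by 2.45 and 1.42.

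TMCC3, a membrane protein of the endoplasmic reticulum, had 42.8 and 40.8 normalized counts in Ctr EtOH and 262 and 261 in Ctr DHT. In KO it had 22.6 and 30.1 in EtOH and 194 and 207 in DHT. Its log2 response was 2.65 ± 0.24 in Ctr (adjusted p = 1.02e-26) and 2.91 ± 0.27 in KO (adjusted p = 5.95e-25). MYBPC1, a myosin-binding protein, had 51.4 and 55.7 normalized counts in Ctr EtOH and 260 and 306 in Ctr DHT, and 32.8 and 26.4 in KO EtOH and 274 and 261 in KO DHT. The responses were 2.40 ± 0.22 (adjusted p = 1.82e-26) and 3.19 ± 0.25 (adjusted p = 7.28e-34).

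FICD, an enzyme that adds AMP to the chaperone BiP, rose from 445 and 427 normalized counts to 1542 and 1582 in Ctr, and from 333 and 342 to 1000 and 961 in KO. The log2 responses were 1.84 ± 0.12 (adjusted p = 2.86e-50) and 1.54 ± 0.13 (adjusted p = 1.63e-32). CAMKK2, a calcium-dependent kinase that activates AMPK, rose from 5104 and 4835 to 11467 and 9768 in Ctr and from 3657 and 3821 to 11452 and 11530 in KO. Its responses were 1.10 ± 0.10 (adjusted p = 6.55e-25) and 1.62 ± 0.10 (adjusted p = 7.28e-54). In EtOH both KO libraries lay below both Ctr libraries for CAMKK2, and in DHT the groups overlapped.

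The promoters of the members that rose most with DHT are shown because an androgen response element is built from 2 copies of a hexamer, AGAACA and its complement TGTTCT, in opposite orientation. The windows are the 250 bases before the gene start in RefSeq (GRCh38.p14), 5′ to 3′ on the gene's strand, with a match to either hexamer in capitals. A match was present in MYBPC1 only, and in 4350 of 35116 RefSeq windows of this length, or 12.4%. SOCS2 had no entry, and TMCC3 had 2 entries, of which the first is shown. The windows are chr12:101594721-101594970 on the plus strand for MYBPC1, chr12:94650558-94650807 on the minus strand for TMCC3, chr12:108515027-108515276 on the plus strand for FICD and chr12:121296710-121296959 on the minus strand for CAMKK2.
MYBPC1: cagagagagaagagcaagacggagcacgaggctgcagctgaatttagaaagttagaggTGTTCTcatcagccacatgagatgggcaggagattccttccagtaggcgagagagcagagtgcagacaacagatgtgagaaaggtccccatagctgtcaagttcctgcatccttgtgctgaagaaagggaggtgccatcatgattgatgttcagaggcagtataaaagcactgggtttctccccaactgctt
TMCC3: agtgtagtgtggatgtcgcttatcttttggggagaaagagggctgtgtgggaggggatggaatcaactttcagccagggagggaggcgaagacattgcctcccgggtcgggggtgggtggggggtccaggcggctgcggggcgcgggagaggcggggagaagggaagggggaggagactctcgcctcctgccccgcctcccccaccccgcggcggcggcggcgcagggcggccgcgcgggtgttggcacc
FICD: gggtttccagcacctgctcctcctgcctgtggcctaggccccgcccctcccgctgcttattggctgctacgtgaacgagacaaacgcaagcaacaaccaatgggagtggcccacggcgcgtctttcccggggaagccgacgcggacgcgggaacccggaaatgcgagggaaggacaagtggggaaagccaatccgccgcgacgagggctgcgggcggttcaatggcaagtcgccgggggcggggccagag
CAMKK2: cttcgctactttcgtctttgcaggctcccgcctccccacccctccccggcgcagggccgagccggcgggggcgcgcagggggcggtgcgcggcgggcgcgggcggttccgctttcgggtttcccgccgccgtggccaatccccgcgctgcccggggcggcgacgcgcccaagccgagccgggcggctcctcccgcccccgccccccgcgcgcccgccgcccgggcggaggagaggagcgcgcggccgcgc
A match describes the letters alone, and absence of a match in this window says nothing of binding elsewhere. GC content of the windows was 49.6% in MYBPC1, 70.4% in TMCC3, 66.8% in FICD and 82.8% in CAMKK2.

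Other members fell with DHT. ATP2B1 (chr12:89981826-90103143), a calcium pump of the plasma membrane, had 6451 and 5351 normalized counts in Ctr EtOH and 2608 and 2734 in Ctr DHT, and 5561 and 5322 in KO EtOH and 2458 and 2138 in KO DHT. The log2 responses were -1.14 ± 0.12 (adjusted p = 7.92e-20) and -1.24 ± 0.12 (adjusted p = 3.42e-23), with no overlap between EtOH and DHT. NAV3 fell from 254 and 201 to 91.9 and 70.6 in Ctr, by -1.49 ± 0.23 (adjusted p = 3.28e-09), and from 292 and 353 to 194 and 145 in KO, by -0.92 ± 0.21 (adjusted p = 0.000224).

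KSR2, a scaffold of the MAP kinase cascade, fell in Ctr by -0.93 ± 0.22 (adjusted p = 0.000211), from 490 and 317 to 241 and 183. In KO its log2 response was -0.52 ± 0.21 (adjusted p = 0.0865). ELK3 fell in Ctr by -0.76 ± 0.16 (adjusted p = 2.69e-05) and had a response of -0.45 ± 0.17 in KO (adjusted p = 0.0473), under the fold minimum. RILPL2 fell in KO by -0.89 ± 0.14 (adjusted p = 2.60e-08) and had a response of -0.53 ± 0.15 in Ctr (adjusted p = 0.00287). NUAK1, a kinase related to AMPK, fell in KO by -0.85 ± 0.16 (adjusted p = 2.86e-06) and had a response of -0.51 ± 0.17 in Ctr (adjusted p = 0.0139).

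**Figure D5:**
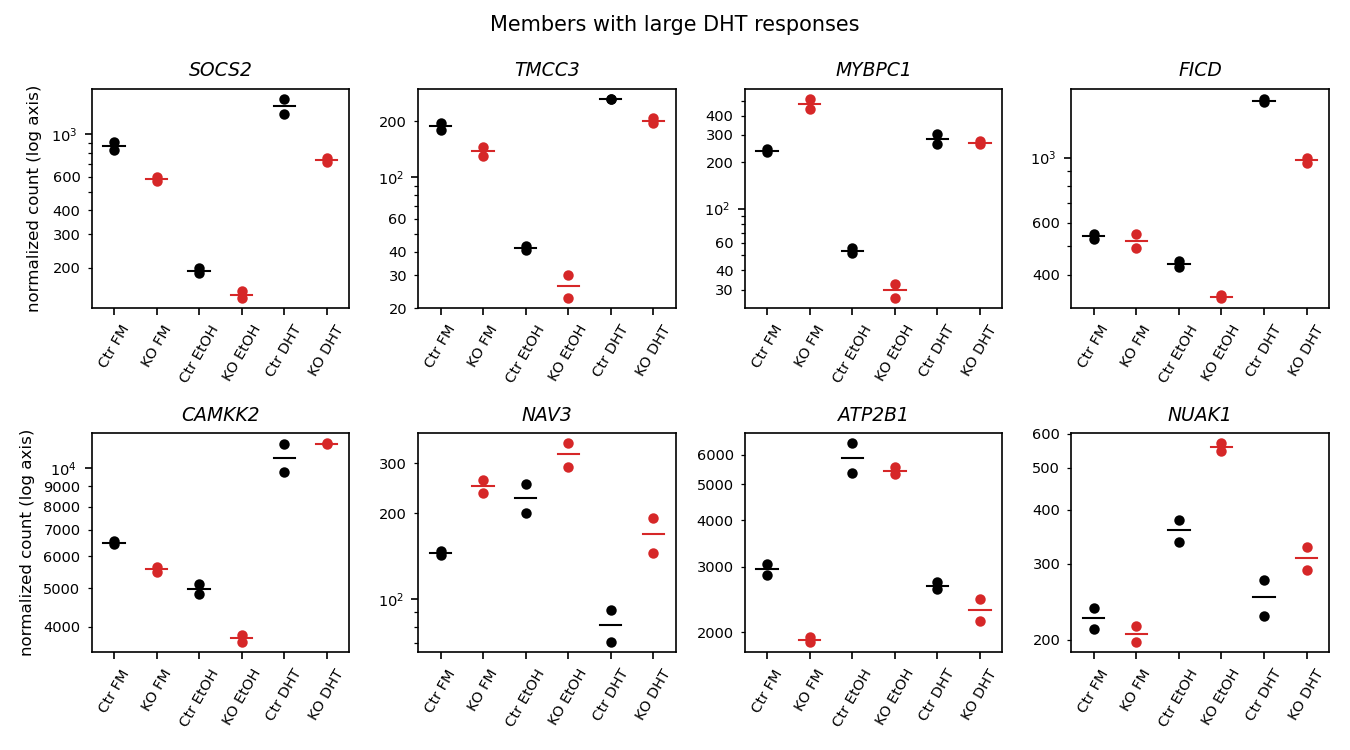
Normalized counts, on a log axis, of 8 members with large DHT responses in each library, with Ctr in black, KO in red, points for replicates and bars for means. SOCS2 goes from 188 and 199 in Ctr EtOH to 1278 and 1530 in Ctr DHT, and ATP2B1 from 6451 and 5351 to 2608 and 2734.

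In the secretory list, 4 of 13 members rose and 1 fell in Ctr, while 6.04% of all genes rose and 5.37% fell. In KO 2 rose and 1 fell, while 4.43% and 3.24% of all genes did. The list was not compared with other genes by a test, and it had median responses of 0.41 and 0.39 against about -0.01 and -0.03 over all genes. HSP90B1 rose in Ctr by 0.95 ± 0.13 (adjusted p = 2.19e-12) and had a response of 0.49 ± 0.13 in KO (adjusted p = 0.00163). GOLGA3, a Golgi coiled-coil protein, rose by 0.84 in Ctr and 0.71 in KO, and CKAP4, a protein of endoplasmic reticulum sheets, rose by 0.68 in Ctr and stood at 0.55 in KO. In the signalling list 3 of 19 members rose in each line, SOCS2, IGF1 and CAMKK2, and NUAK1 fell in KO, beside the same shares of all genes.

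No member passed the test for a DHT response that differed between the lines. Of 284 members with an adjusted p for this interaction contrast, 0 passed in DESeq2, while 0.408% of all genes passed, and 0 passed in edgeR. At an unadjusted p under 0.05 there were 15 of all 326 members, or 4.60%, against 2.62% of all genes. Members had at least 120 summed counts and all genes at least 10, so these shares come from unlike sets. The members' share was also the larger for DHT against EtOH, at 35.58% against 20.04% in Ctr and 28.83% against 15.45% in KO. Nothing is therefore read from the gap. The lowest adjusted p belonged to CAMKK2 (0.0614), whose response was larger in KO by 0.53 ± 0.14 on the log2 scale. The difference was -0.46 ± 0.18 for HSP90B1 (adjusted p = 0.623), -0.52 ± 0.22 for SOCS2 (adjusted p = 0.774) and 0.79 ± 0.33 for MYBPC1 (adjusted p = 0.824). With 2 replicates a group these values do not show that the responses were alike.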

How the data were processed

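Poly(A) RNA-seq was analysed in 12 libraries, with groups and replicate numbers taken from the labels. Per the labels and the study's methods the authors used a stranded TruSeq kit, aligned to GRCh37 with TopHat2 (2.0.11) and counted reads per Ensembl gene with HTSeq (0.5.3p3). The deposited values were raw counts per gene, with no normalization. Tallies of unassigned reads were left out. Positions and GC content came from GENCODE on GRCh37.

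Genes with at least 10 summed counts were fitted with DESeq2 (1.42.0, R 4.3.3, as in the study) over all 12 libraries, with Benjamini-Hochberg adjustment over all genes tested. The DESeq2 fit of KO against Ctr in EtOH and the search for edges were run on simulated data with known answers before use. edgeR (4.0.16) and other scalings, filters, single conditions and left-out replicates were alternatives. Labels did not say that replicates came from separate cultures, so p-values measure the spread between samples. The detection floor covers counting error only, and the ± values are SDs between replicates or standard errors from the DESeq2 fit.

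Members and gene lists were chosen with earlier results of these data known. Named genes were those at the edges, the most abundant of each role list, and the largest changes with a mean of at least 100 normalized counts. Some genes that this rule covers are not reported here.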

Additional observations from a re-analysis of the deposited data

Results flagged for a closer look

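MYBPC1 stood out because its KO over Ctr difference had opposite signs in FM and in EtOH, with both KO libraries on the same side of both Ctr libraries in each. Its log2 fold change was 1.001 in FM, with 440 and 512 normalized counts in KO and 232 and 243 in Ctr. It was -0.87 in EtOH, with 32.8 and 26.4 in KO and 51.4 and 55.7 in Ctr. In DHT the groups overlapped, with 274 and 261 in KO and 260 and 306 in Ctr. The difference between FM and EtOH was not tested.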

How the results depend on the processing

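Members called moved most with the fold minimum, without which 90 members passed for KO against Ctr in FM, 55 in EtOH and 76 in DHT, and 84 and 64 for DHT in Ctr and KO. Leaving out a replicate gave 9 to 25 in FM, 15 to 36 in EtOH, 14 to 31 in DHT, 33 to 43 for DHT in Ctr, 18 to 28 for DHT in KO and 0 to 2 for the interaction. The count in FM was 9 without Ctr FM replicate 2 and 11 without KO FM replicate 2, in EtOH 36 without Ctr EtOH replicate 1 and 15 without KO EtOH replicate 2, and in DHT 31 without Ctr DHT replicate 1. Of 15 correlations of same-numbered deviations between groups, 8 were positive (-0.41 to 0.69), and the highest was between Ctr EtOH and Ctr DHT. These correlations share groups, so their signs cannot settle whether the replicate number pairs the samples. With the number as a replicate block the counts were 22, 23, 20, 34, 24 and 0, and no call count moved by over 1.5 times.

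The 2 edges, at 109.554 and 124.069 Mb with a middle median of -0.07, fell at 82.6175 and 109.554 Mb (-0.17) with every member, at 82.6175 and 101.962 Mb (-0.18) by least squares, at 2.90414 and 65.1533 Mb (0.042) over all of chromosome 12, and at 93.7717 and 96.3945 Mb (-0.25) in DHT alone. The middle median was 0.0042 in EtOH alone and -0.15 with DESeq2 size factors, and GC adjustment gave a first edge at 88.5361 Mb and -0.16. Leaving out a replicate moved the edges over 82.6175 to 123.35 Mb and 104.659 to 129.594 Mb and the middle median over -0.205 to 0.088.

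The single step in the CPM ratio fell at 82.6175 Mb by least squares and in EtOH alone and at 85.4301 Mb in DHT alone, with sizes of -0.16 in FM, -0.17 in EtOH and -0.16 in DHT, and leaving out a replicate gave 65.1533 to 77.415 Mb and -0.17 to -0.14. The adjusted step fell at 79.9688 Mb in protein coding genes and, with bins of CPM in place of GC content, at 65.1533 Mb (-0.14). Its size was -0.14 in FM alone and -0.17 in DHT alone, and leaving out a replicate gave 82.6175 to 88.5361 Mb and -0.17 to -0.15. The cause of these shifts was not tested. Of 58 named values, 17 missed the threshold in at least 1 alternative and 0 reversed. Both GC adjustment and the single step were chosen after seeing the data.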
